A study of Cavia porcellus with 72 samples.

Results

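Corticosteroid hormones act in the brain through a pair of nuclear receptors, the glucocorticoid receptor encoded by NR3C1 and the mineralocorticoid receptor encoded by NR3C2. Without hormone, each receptor is held in the cytoplasm by heat shock proteins and their cochaperones. Once hormone has bound, the receptor moves to the nucleus and recruits coactivators or corepressors that set how strongly its target genes are transcribed. The hippocampus is rich in both receptors and takes part in the feedback that restrains the stress axis.

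The genes described here are the 2 receptors, the cochaperones FKBP4 and PTGES3, the coactivators NCOA1, NCOA2 and NCOA3, the corepressor NCOR1, and HSD11B1, which encodes the enzyme that regenerates active glucocorticoid inside cells. They were taken by symbol from the tables of read counts per gene. Of these 9 genes, 8 were listed in all 3 tables, which hold 11651, 11716 and 11663 genes for F1, F2 and F3. HSD11B1 was not listed in the count tables used here and was not analysed here.

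The counts come from the right hippocampus of juvenile female guinea pigs at postnatal day 40, in 3 generations. Pregnant F0 animals had received the synthetic glucocorticoid betamethasone (sGC) or saline vehicle (control). F1 animals were the offspring of these pregnancies, and F2 and F3 animals descended through the paternal line, from males mated with females outside the experiment, so that F2 and F3 animals were not themselves treated. The groups held 6 control and 5 sGC animals of F1, 6 and 6 of F2, and 6 and 7 of F3, each animal from an independent mother. RNA was extracted from a portion of the powdered tissue, so that cell types are mixed in every library, and fewer cells of a type cannot be told apart from less RNA per cell. Levels are in CPM, the reads of a gene for each 1000000 counted in the library, after TMM scaling of library sizes. They are not corrected for transcript length and are compared here between libraries but not between genes.

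Library totals ran from 13507449 to 19767033 reads. The 8 genes were well covered, from 813 reads for NCOA2 in its lowest library to 5809 for NCOA1 in its highest. Within groups, no pair of libraries agreed to within counting error: over 91 pairs, chi-square divided by its degrees of freedom was 2.11 to 28.9. F3 sGC library 5 gave 2.11 to 3.23 against F3 sGC libraries 1, 2, 3, 4 and 7, which gave 4.15 to 7.98 among themselves. It thus lay nearer to each of them than they lay to one another. Why it did so, and whether it is independent of them, was not tested. Each RNA sample title ends in SGM and a number, called the library number here, and the titles do not say what it counts. The sGC libraries 4 and 5 of F1, 6 of F2, and 5 and 6 of F3 carry the library numbers 32 to 36, apart from the other libraries of their generation. No control library carries such a number, so in these 5 libraries the number and sGC cannot be told apart, and results were also computed without them. Of the 8 markers of hippocampal neurons, 7 were listed, and none was at 0 in any library. Nearly every listed gene had a read in each library, as 11646 of 11651 did in F1 sGC library 1. Listed markers of striatal and thalamic neurons, choroid plexus and meninges were not at 0 either, so this does not tell tissues apart.

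The mineralocorticoid receptor gene was one of the transcripts the study also assayed by quantitative PCR, and its primers are shown because they mark the stretch of the transcript that was assayed besides the reads counted here. The sequences are those of the study's supplementary material, written 5′ to 3′ in lower case with no part marked.
NR3C2 forward primer: aaacgtatcaagctctactttac
NR3C2 reverse primer: cccatagtgacatcctgag

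The plot of levels in each animal shows the 8 genes in the 6 groups.

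**Figure D1:**
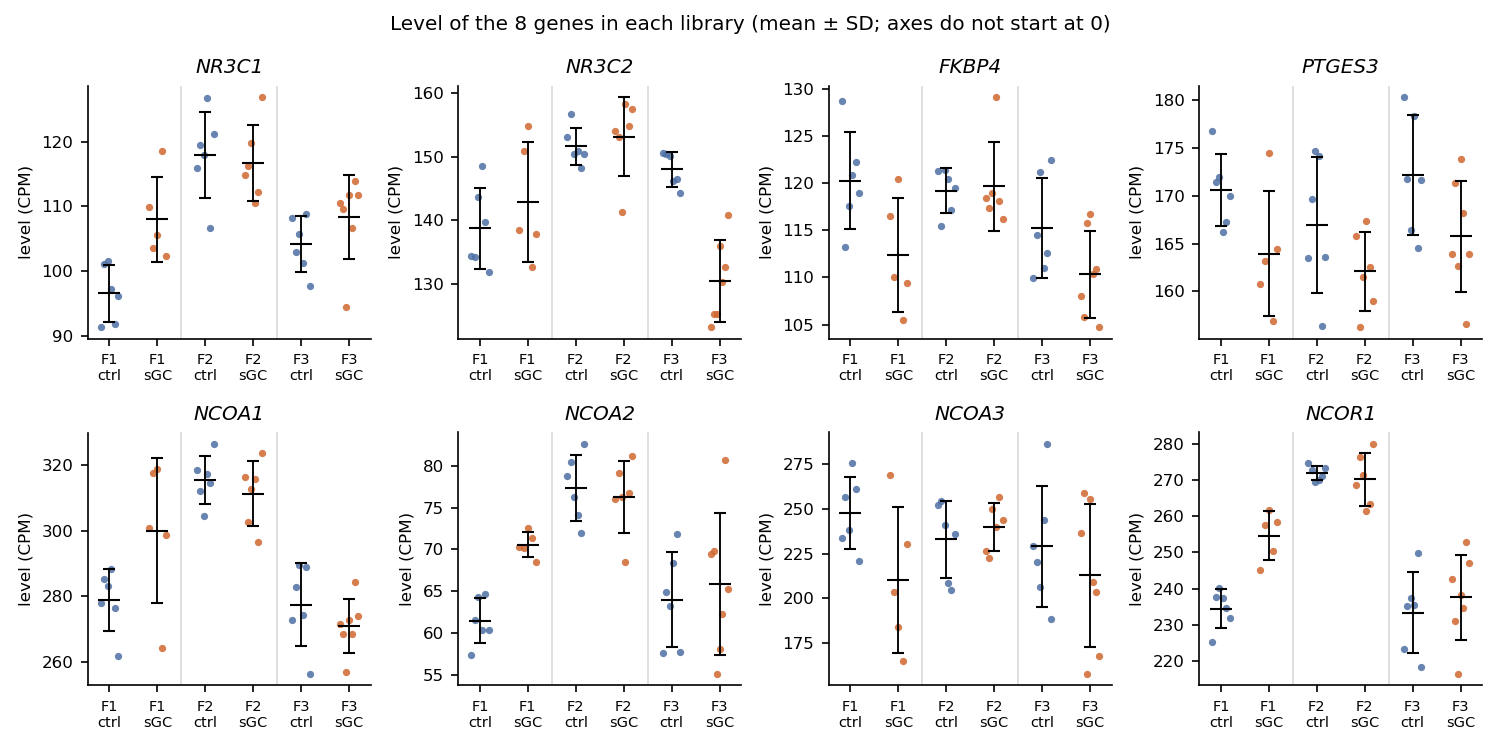
CPM (TMM-scaled, linear axis) of the 8 genes in each animal, with control and sGC groups of F1, F2 and F3 side by side. Points are animals and bars give the mean and SD. The F3 sGC values of NR3C2, from 123 to 141 CPM, all lie below the F3 control values of 144.3 to 150.6 CPM, and NCOA3 spreads most within groups.

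The first question was whether the receptor genes differed between sGC and control animals in each generation. NR3C2, whose product binds corticosteroids with the higher affinity of the 2 receptors, was lower in F3 sGC animals. The 6 F3 control animals had 144.3, 146.2, 146.5, 150.2, 150.4 and 150.6 CPM, with a median of 148 CPM. The 7 F3 sGC animals ran from 123 CPM to 141 CPM, with a median of 130.3 CPM. Every sGC animal was below every control animal, and the groups did not overlap. The means were 148.0 ± 2.70 CPM (SD, n = 6) in control and 130.5 ± 6.44 CPM (SD, n = 7) in sGC animals. The log2 fold change of NR3C2 was -0.18 (standard error 0.0333, 95% interval -0.26 to -0.11), a level lower by 11.8%. By the quasi-likelihood test of edgeR, adjusted over all genes by the method of Benjamini and Hochberg (BH), NR3C2 had an adjusted p of 0.00752. It remained below 0.05 in all 20 alternative fits of the F3 libraries, which gave log2 fold changes from -0.20 to -0.17 and BH-adjusted p of 1.6e-05 to 0.0401 in edgeR or DESeq2.

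NR3C2 did not pass the test in the other generations. In F1 the control animals had a lowest, median and highest NR3C2 level of 132, 137.1 and 149 CPM. The 5 sGC animals of F1 had 133, 138, 138, 151 and 155 CPM, and the groups overlapped. The log2 fold change was 0.04 (95% interval -0.07 to 0.15, edgeR, BH-adjusted p = 0.718). In F2 the NR3C2 levels were 148, 151 and 157 CPM in control and 141, 154 and 158 CPM in sGC animals, lowest, median and highest. The F2 difference was 0.01 on the log2 scale (95% interval -0.06 to 0.09, edgeR, BH-adjusted p = 0.941).

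Whether the NR3C2 difference itself depended on the generation was tested as an interaction over all 36 libraries. The effect of sGC on NR3C2 was lower in F3 than in F1 by 0.23 on the log2 scale, and this missed the threshold (interaction of -0.23, standard error 0.0521, edgeR, BH-adjusted p = 0.0724). Without F1 sGC library 4 it was -0.25 (edgeR, BH-adjusted p = 0.00633), and without libraries 32 to 36 it was -0.27 (edgeR, BH-adjusted p = 0.00827). Without F3 control library 6 the interaction was -0.23 with an adjusted p of 0.0402 from edgeR. In every other fit that left out 1 library the interaction missed the threshold. It also missed with RLE in place of TMM scaling and without a filter on low counts. Over the 36 fits that left out 1 library it ran from -0.25 to -0.19. Against F2 the F3 effect differed by -0.20 (standard error 0.0508, edgeR, BH-adjusted p = 0.339).

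NR3C1, the receptor occupied when hormone is high, did not pass the test in any generation. In F1 the 6 control animals ran from 91.4 to 101.5 CPM with a median of 96.7 CPM. The 5 sGC animals had 102.4, 104, 106, 109.8 and 119 CPM. All 5 sGC animals were thus above every control animal, by a margin at the closest pair of under 1 CPM. NR3C1 averaged 96.6 ± 4.36 CPM (SD, n = 6) in control and 108.0 ± 6.56 CPM in sGC animals (SD, n = 5), for a log2 fold change of 0.15 (standard error 0.0446, 95% interval 0.05 to 0.25) and a level 11.2% higher. Its BH-adjusted p in edgeR was 0.086, and 2 of 18 alternatives passed the threshold, DESeq2 at 0.0294 and a fit of all 3 generations together by edgeR at 0.0284.

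In F2 the NR3C1 levels were 107, 119 and 127 CPM in control and 111, 116 and 127 CPM in sGC animals, lowest, median and highest. The F2 log2 fold change was -0.02 (95% interval -0.11 to 0.08, edgeR, BH-adjusted p = 0.958). In F3, 6 of 7 sGC animals were above the control mean of NR3C1, and 1, sGC library 3, was the lowest of both groups at 94.5 CPM. The F3 control animals had 97.8, 104 and 109 CPM and the sGC animals 94.5, 110.5 and 114 CPM, lowest, median and highest. Groups overlapped, and the log2 fold change was 0.06 (standard error 0.041, edgeR, BH-adjusted p = 0.46).

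Because a ratio of 2 genes within a library does not depend on how libraries are scaled, the balance of the receptors was compared as the log2 ratio of NR3C2 to NR3C1 reads. In F3 the ratio ran from 0.43 to 0.56 in control and from 0.16 to 0.41 in sGC animals, so the groups did not overlap. Its mean fell from 0.51 ± 0.0493 (SD, n = 6) to 0.27 ± 0.0867 (SD, n = 7), or from 1.42 to 1.21 NR3C2 reads for each NR3C1 read, a ratio not corrected for transcript length. The difference of -0.24 had an exact two-sided permutation p of 0.00117, the smallest these group sizes allow, and 0.0105 after Benjamini-Hochberg adjustment over the 9 ratio tests. In F1 the mean ratio was 0.52 in control and 0.40 in sGC animals, a difference of -0.12 that missed the threshold (adjusted exact permutation p = 0.370). In F2 it was 0.36 and 0.39 (adjusted exact permutation p = 0.872).

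**Figure D2:**
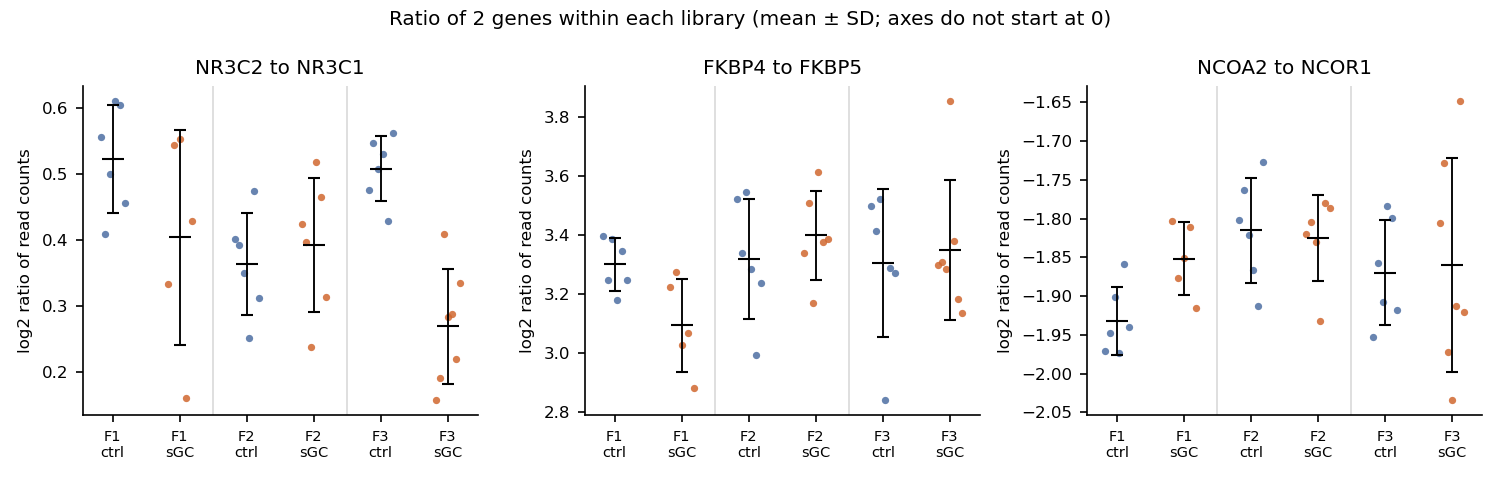
Log2 ratios of reads within each library for NR3C2 to NR3C1, FKBP4 to FKBP5 and NCOA2 to NCOR1, by generation and group. Points are animals and bars give the mean and SD, and the receptor ratio in F3, from 0.43 to 0.56 in control and 0.16 to 0.41 in sGC animals, is the one without overlap that passed the adjusted test.

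FKBP4 encodes the cochaperone that aids hormone binding and carries the receptor toward the nucleus, and PTGES3 encodes p23, which steadies the receptor in its hormone-binding form. Neither passed the test in any generation. In F1 FKBP4 was 113, 119.9 and 129 CPM in control, lowest, median and highest, and 105, 109, 110.1, 117 and 120.5 CPM in the 5 sGC animals. The groups overlapped, and the log2 fold change was -0.11 (standard error 0.0446, 95% interval -0.21 to -0.00, edgeR, BH-adjusted p = 0.211). FKBP4 differed by 0.01 on the log2 scale in F2 (edgeR, BH-adjusted p = 0.982) and by -0.06 in F3 (edgeR, BH-adjusted p = 0.355). PTGES3 had the narrowest spread of the 8 genes, with a ratio of 1.15 between its highest and lowest library. Its log2 fold changes were -0.07 in F1, -0.04 in F2 and -0.06 in F3, and edgeR gave BH-adjusted p of 0.339, 0.802 and 0.367.

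FKBP5 encodes the cochaperone that opposes FKBP4 at the receptor and is itself a target of the glucocorticoid receptor. Its mean level was 12.2 ± 0.692 CPM (SD, n = 6) in control and 13.2 ± 1.53 CPM (SD, n = 5) in sGC animals of F1, for a log2 fold change of 0.11 (edgeR, BH-adjusted p = 0.483). In F2 it was -0.08 and in F3 -0.11 (edgeR, BH-adjusted p = 0.879 and 0.599). The log2 ratio of FKBP4 to FKBP5 reads was lower in F1 sGC animals by 0.21, from 3.30 ± 0.0887 (SD, n = 6) to 3.10 ± 0.158 (SD, n = 5), with an exact permutation p of 0.0346 and an adjusted one of 0.104. The differences of this ratio were 0.08 in F2 and 0.04 in F3, with adjusted exact permutation p of 0.826 and 0.872.

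NCOA1, NCOA2 and NCOA3 encode the p160 coactivators, which bind hormone-loaded receptors and bring in histone acetyltransferases. NCOA2 was higher in F1 sGC animals. The 6 F1 control animals ran from 57.5 to 64.7 CPM with a median of 61.0 CPM. The 5 F1 sGC animals had 68.5, 70.1, 70.3, 71.3 and 72.5 CPM, all above every control animal. NCOA2 averaged 61.5 ± 2.71 CPM (SD, n = 6) in control and 70.6 ± 1.48 CPM in sGC animals (SD, n = 5), for a log2 fold change of 0.19 (standard error 0.0383, 95% interval 0.10 to 0.28) and a level 14.1% higher. NCOA2 thus passed the threshold in edgeR with a BH-adjusted p of 0.0256.

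This NCOA2 call depended on the fit and on single animals. It passed in 8 of 18 alternatives, with log2 fold changes of 0.17 to 0.21 and adjusted p of 0.000639 to 0.0954 from edgeR or DESeq2. It was lost in 7 of the 11 fits that left out 1 library and without libraries 32 to 36 (edgeR, BH-adjusted p = 0.052).

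In F2 NCOA2 was 72.0, 77.5 and 82.6 CPM in control and 68.5, 76.5 and 81.1 CPM in sGC animals, lowest, median and highest. In F3 it was 57.7, 64.1 and 71.8 CPM in control and 55.2, 65.3 and 80.6 CPM in sGC animals. The groups overlapped in both generations, with log2 fold changes of -0.02 and 0.04 (edgeR, BH-adjusted p = 0.941 and 0.805). The interaction of F2 against F1 was -0.22 (standard error 0.0883, edgeR, BH-adjusted p = 0.204) and that of F3 against F1 was -0.16 (edgeR, BH-adjusted p = 0.460), so a difference in the NCOA2 effect between generations was not shown.

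NCOA1 was 262, 280.4 and 288 CPM in F1 control animals, lowest, median and highest, and 264, 299, 300.8, 318 and 319 CPM in the 5 F1 sGC animals. Of the sGC animals, 4 were above every control animal and 1, sGC library 4, was among the lowest. The log2 fold change of NCOA1 was 0.10 in F1, -0.02 in F2 and -0.03 in F3 (edgeR, BH-adjusted p = 0.297, 0.915 and 0.592). NCOA3 varied more between animals of a group than the other 7 genes, with a coefficient of variation of 13.7% where counting error alone gives 1.65%. The 5 F1 sGC animals had 165, 184, 204, 231 and 269 CPM, against 221, 248 and 276 CPM in control, lowest, median and highest. The log2 fold change of NCOA3 was -0.24 in F1, 0.04 in F2 and -0.11 in F3 (edgeR, BH-adjusted p = 0.217, 0.898 and 0.645).

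NCOR1 encodes a corepressor that docks histone deacetylase on nuclear receptors, and it was compared beside the coactivators. In F1 the control animals had 225, 236 and 240.2 CPM, lowest, median and highest. The 5 sGC animals had 245, 250.3, 257, 258 and 262 CPM, all above every control animal. NCOR1 averaged 235 ± 5.34 CPM (SD, n = 6) in control and 255 ± 6.69 CPM in sGC animals (SD, n = 5), for a log2 fold change of 0.11 (standard error 0.0343), or 8.0%. Its BH-adjusted p of 0.101 in edgeR missed the threshold, while 2 of 18 alternatives passed it, DESeq2 at 0.00431 and the fit of all 3 generations together by edgeR at 0.0253. NCOR1 differed by -0.01 in F2 and by 0.03 in F3 on the log2 scale (edgeR, BH-adjusted p = 0.96 and 0.75). The log2 ratio of NCOA2 to NCOR1 reads differed by 0.08 in F1 (exact permutation p = 0.026, adjusted 0.104), by -0.01 in F2 and by 0.01 in F3.

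**Figure D3:**
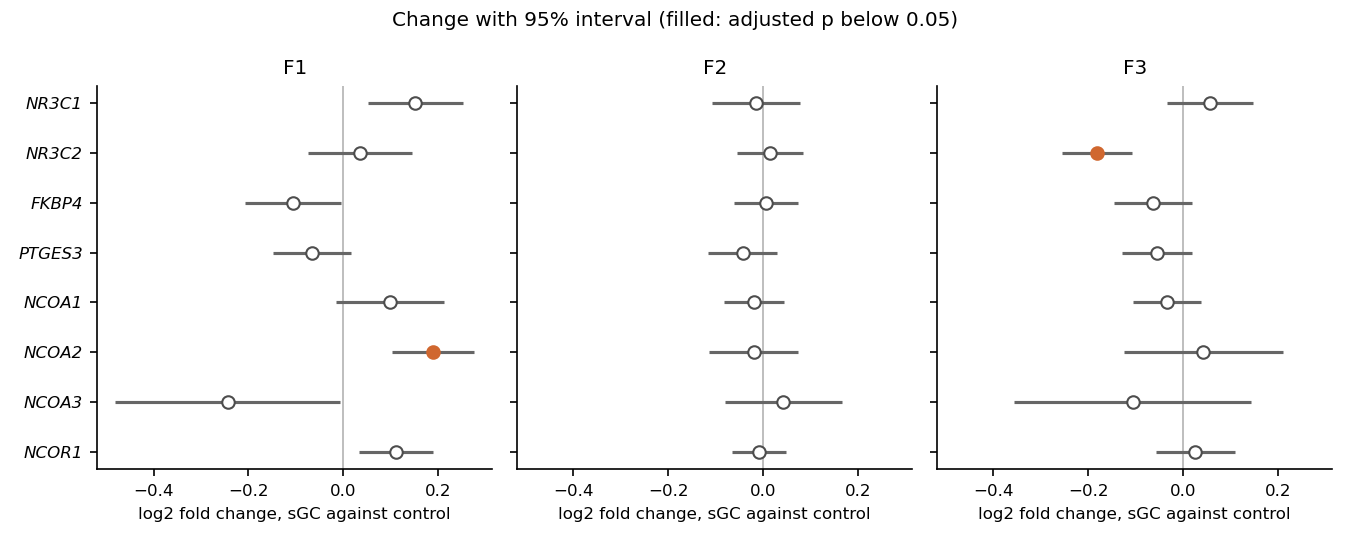
Log2 fold change of sGC against control for the 8 genes in each generation, with 95% intervals from edgeR's fit of that generation. The F2 intervals all lie between -0.12 and 0.17, and the 2 changes past an adjusted p of 0.05 are NCOA2 at 0.19 in F1 and NR3C2 at -0.18 in F3.

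Counted over the 8 genes, 1 passed in F1 (NCOA2), where 2.08% of all genes tested passed. In F1, 5 of 8 had an unadjusted p below 0.05 in edgeR's test, where 19.6% of all genes did. In F1, 3 of 8 had groups that did not overlap (NR3C1, NCOA2 and NCOR1), where 4.41% of all genes did. In F2 edgeR's test called 0 of 8 genes, as did the likelihood ratio test and DESeq2, with 0 of 8 at an unadjusted p below 0.05 and 0 of 8 with groups apart. The F2 background was 0% of genes called, 6.64% with an unadjusted p below 0.05 and 0.403% without overlap. In F3, 1 of 8 passed (NR3C2), where 5.04% of all genes passed. It was also the 1 gene of 8 with an unadjusted p below 0.05 and the 1 of 8 with groups apart, against 21.1% and 2.71% of all genes. The F2 estimates were bounded on both sides, since every 95% interval there lay within -7.69% and 12.2%.

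Over the joint fit of 36 libraries, edgeR called 0 of 8 genes for a difference of the sGC effect between generations at an adjusted p of 0.05. At an unadjusted p below 0.05 it found 4 of 8 for F2 against F1, 3 of 8 for F3 against F1 and 1 of 8 for F3 against F2, where 16.8%, 13.1% and 9.08% of all genes had such a p. Of all 11390 genes in this fit, 0.290% passed the adjusted threshold for F2 against F1, 0% for F3 against F1 and 0% for F3 against F2. By edgeR's likelihood ratio test, 1 of 8 passed for F3 against F1, NR3C2 at an adjusted p of 0.0251, and 0 of 8 for each of the other contrasts. The 4 genes for F2 against F1 were NR3C1 (-0.18), NCOR1 (-0.13), NCOA2 (-0.22) and NCOA1 (-0.13 on the log2 scale), and edgeR gave BH-adjusted p of 0.147 to 0.216. NCOA1 for F3 against F1 was -0.14 (edgeR, BH-adjusted p = 0.243). This passed without F1 sGC library 4, at -0.18 (edgeR, BH-adjusted p = 0.0177), and in no other fit that left out 1 library.

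The mean of the sGC effects over the 3 generations was tested because a small change of the same sign might pass only when pooled. Here 0 of 8 genes passed in edgeR's quasi-likelihood or likelihood ratio test, where 8.53% of all genes passed the first of these. An unadjusted p below 0.05 was found for 5 of 8, where 24.6% of all genes had one. The mean effect was -0.05 on the log2 scale for PTGES3 (standard error 0.0182, edgeR, BH-adjusted p = 0.0689) and 0.07 for NR3C1 (standard error 0.0254, edgeR, BH-adjusted p = 0.0891). FKBP4 had -0.05, NCOR1 0.05 and NCOA2 0.07 (edgeR, BH-adjusted p = 0.113, 0.115 and 0.192).

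Levels in control animals were compared between generations to place the sGC differences. In the joint fit, 5 of 8 genes were higher in F2 than in F1 control animals. Of all 11390 genes, 2562 were higher and 2553 lower, and 44.9% differed in either direction. NR3C1 was higher by 0.29 on the log2 scale (standard error 0.0439, edgeR, BH-adjusted p = 9.94e-07). NCOA2 was higher by 0.33 (edgeR, BH-adjusted p = 2.89e-05), NCOR1 by 0.21 (edgeR, BH-adjusted p = 6.61e-07), NCOA1 by 0.18 (edgeR, BH-adjusted p = 0.000106) and NR3C2 by 0.13 (edgeR, BH-adjusted p = 0.00408, all). Between F3 and F2 controls, 4 of 8 genes were lower in F3. Of all 11390 genes, 2161 were lower and 2165 higher, and 38.0% differed in either direction. The 4 genes were NR3C1 at -0.18, NCOA1 at -0.19, NCOA2 at -0.27 and NCOR1 at -0.22 on the log2 scale, and edgeR gave BH-adjusted p of 0.00108, 7.51e-05, 0.00044 and 3.79e-07. Between F3 and F1 controls edgeR called 0 of 8 genes, where 0.0176% of all genes passed. For 2 of 8 (NR3C1 and NR3C2) the unadjusted p was below 0.05, where 7.70% of all genes had such a p.

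The order of control levels was thus the same for both receptors, with F1 lowest and F2 highest. For NR3C1 the means were 96.6 CPM in F1, 104 CPM in F3 and 118 CPM in F2. F3 was above F1 by 0.11 on the log2 scale, which missed the adjusted threshold (edgeR, unadjusted p = 0.0181, BH-adjusted p = 0.547). For NR3C2 they were 139 CPM in F1, 148.0 CPM in F3 and 152 CPM in F2. F3 was above F1 by 0.09 on the log2 scale, which missed the adjusted threshold (edgeR, unadjusted p = 0.0147, BH-adjusted p = 0.509). Against F2 the F3 difference was -0.03 (edgeR, unadjusted p = 0.347, BH-adjusted p = 0.485). FKBP4, PTGES3 and NCOA3 passed in none of the 3 contrasts of control levels. The library numbers run with the generation, and each generation has its own count table with a different number of genes. Generation, library number and any difference in how the tables were made therefore cannot be told apart.

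The other genes of the receptor complex were taken from a list of 17 chaperones and cochaperones, of which 16 were tested. In F3, 15 of 16 were lower in sGC animals and 7 passed the test as lower, where 2.87% of all genes tested passed as lower. The median log2 fold change of the 16 was -0.10, beside 0.00 over all genes. HSPA8, the constitutive HSP70 that helps load the receptor, ran from 2087 to 2324 CPM with a median of 2207 CPM in control. In sGC animals it ran from 1778 to 1975 CPM with a median of 1847 CPM, so the groups did not overlap. The log2 fold change of HSPA8 was -0.25 (standard error 0.0351, edgeR, BH-adjusted p = 0.00195).

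HSP90AA1, the inducible HSP90 that clasps the receptor, fell from 2203 ± 59.8 CPM (SD, n = 6) to 1958 ± 56.2 CPM (SD, n = 7) in F3, by 0.17 on the log2 scale (edgeR, BH-adjusted p = 0.00568). STIP1, the HOP adaptor that joins HSP70 to HSP90, fell from 218 ± 6.18 to 198 ± 4.17 CPM (edgeR, BH-adjusted p = 0.0107). The HSP40 gene DNAJA1 fell from 235 ± 9.06 to 209.9 ± 6.22 CPM (edgeR, BH-adjusted p = 0.00902). PPP5C, a phosphatase that binds HSP90, fell from 91.3 ± 2.04 to 83.3 ± 3.40 CPM, and AHSA1, which stimulates the HSP90 ATPase, fell from 144.3 ± 5.77 to 130.5 ± 5.97 CPM (edgeR, BH-adjusted p = 0.0275 and 0.0333). The last gene to pass was HSPA4, at -0.11 (edgeR, BH-adjusted p = 0.0494). Of the 16 genes, 5 had groups without overlap in F3, where 2.71% of all genes did. All 5 were among these 7, and AHSA1 and HSPA4 overlapped. Without libraries 32 to 36, 4 of 16 passed as lower in F3. AHSA1, HSPA4 and PPP5C then missed the threshold (edgeR, BH-adjusted p = 0.0872, 0.0977 and 0.0858). AHSA1 and HSPA4 also missed it in most fits that left out 1 library. HSPA4 further missed it with RLE scaling and without a filter on low counts (edgeR, BH-adjusted p = 0.0512 and 0.0509).

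In F1 the list showed 15 of 16 genes lower in sGC animals with a median of -0.09, beside -0.01 over all genes. There edgeR called 0 of 16, where 2.08% of all genes passed. An unadjusted p below 0.05 was found for 7 of 16, against 19.6% of all genes. The smallest p in F1 was that of PPID, the cyclophilin cochaperone, at 96.2 ± 2.69 and 86.5 ± 4.36 CPM (log2 fold change -0.16, edgeR, BH-adjusted p = 0.0585). DESeq2 called 2 of the chaperones lower in F1. In F2, 10 of 16 were lower with a median of -0.02, and edgeR and DESeq2 called 0 of 16. There edgeR gave 0 of 16 an unadjusted p below 0.05, where 6.64% of all genes had one. The lowest p was that of HSPA8 at -0.06 (edgeR, BH-adjusted p = 0.793). The summed level of the list in F3 was 6238 to 6657 CPM in control and 5606 to 5982 CPM in sGC animals, without overlap. In F1 it was 6127 to 6824 CPM in control and 5007 to 6560 CPM in sGC animals, with sGC library 4 lowest.

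**Figure D4:**
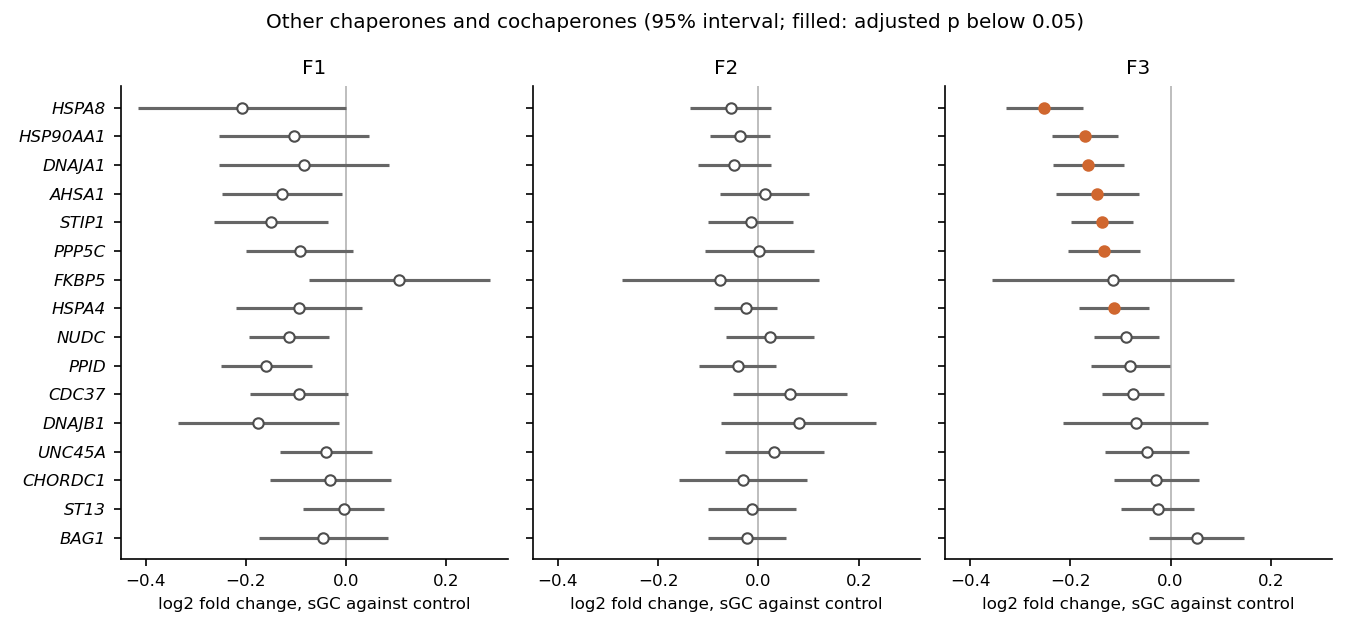
Log2 fold change of sGC against control for the 16 chaperones and cochaperones tested, by generation. Circles are estimates with 95% intervals, filled where the adjusted p was below 0.05. Most values lie below 0 in F1 and F3, and those that passed are the 7 genes of F3, from -0.25 for HSPA8 to -0.11 for HSPA4.

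Other coregulators of nuclear receptors were taken from a list of 28 genes, of which 24 were tested in each generation. Of these, edgeR called 0 of 24 in each, where 2.08%, 0% and 5.04% of all genes passed in F1, F2 and F3. In F1, 16 were higher and 8 lower, and the median was 0.05. An unadjusted p below 0.05 was found for 10 of 24, where 19.6% of all genes had one. The smallest p was that of NRIP1, a corepressor of hormone receptors, at 58.7 ± 1.79 and 65.3 ± 2.18 CPM (log2 fold change 0.15, edgeR, BH-adjusted p = 0.06). In F2, 12 were higher and 12 lower and 1 had an unadjusted p below 0.05, where 6.64% of all genes had one. PPARGC1A, a coactivator of energy metabolism, had the smallest p in F2, at -0.11 (edgeR, BH-adjusted p = 0.711). In F3, 12 were higher and 12 lower and 6 of 24 had an unadjusted p below 0.05, where 21.1% of all genes had one. PIAS1, a SUMO ligase, had the smallest p at 121 ± 4.58 and 111 ± 6.00 CPM (log2 fold change -0.12, edgeR, BH-adjusted p = 0.0716).

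Of the genes for ligand supply and nuclear import, 7 of 9 were tested and edgeR called 0 in each generation. An unadjusted p below 0.05 was found for 1 in F1 and 0 in F2 and F3. Over all genes the share was 19.6%, 6.64% and 21.1%. ABCB1, a drug and steroid efflux pump of the blood-brain barrier, had the smallest p in F1, at 35.2 ± 8.02 CPM in control and 46.5 ± 4.30 CPM in sGC animals (log2 fold change 0.40, standard error 0.135, edgeR, BH-adjusted p = 0.128). In F2 it was H6PD, which supplies the cofactor of HSD11B1, at 0.10 (edgeR, BH-adjusted p = 0.748). In F3 it was HSD11B2, which inactivates glucocorticoid, at 0.592 and 0.749 CPM, levels too low for a narrow error (log2 fold change 0.31, standard error 0.253, edgeR, BH-adjusted p = 0.519).

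Markers of cell types were set beside these results. Over all genes tested in F3, 5.04% passed edgeR's test and 21.1% had an unadjusted p below 0.05. In F3, where NR3C2 and the chaperones were lower, all 5 general neuron markers were lower and 2 passed the test (SNAP25 and SYT1, each at -0.19). Their summed level was 5176 to 5599 CPM in control and 4347 to 5089 CPM in sGC animals. All 7 interneuron markers were lower and 2 passed (GAD1 and GAD2), with a sum of 660.6 to 742 CPM in control and 596 to 673 CPM in sGC animals. All 9 astrocyte markers were higher and 4 passed (SLC4A4, SLC1A2, S100B and GLUL), with a sum of 10977 to 12016 CPM in control and 12292 to 13720 CPM in sGC animals. Of the markers of hippocampal neurons, 6 of 7 were lower with a median log2 fold change of -0.01, edgeR called 0 of 7 and gave 0 of 7 an unadjusted p below 0.05, and their sums overlapped at 843 to 916 CPM in control and 779 to 922 CPM in sGC animals. All 7 meningeal fibroblast markers tested were higher in F3 (median 0.18), and edgeR called 0 of 7 with 2 at an unadjusted p below 0.05. All 6 microglia markers tested were higher (median 0.10), and edgeR called 0 of 6 with 1 at an unadjusted p below 0.05. Of 4 thalamic neuron markers tested, 2 were higher and 2 lower, and 1 passed as higher. Their sums overlapped at 49.0 to 74.5 CPM in control and 48.0 to 69.6 CPM in sGC animals. Of the oligodendrocyte, endothelium, choroid plexus and striatal neuron markers, edgeR called 0 in F3. Of the markers listed in all 3 tables, none was at 0 in any library, as held for nearly every listed gene. The part of these lists in the NR3C2 and chaperone results was not tested.

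In F1, where NCOA2 was higher, all 9 astrocyte markers were higher and 1 passed (SLC4A4), with a sum of 9966 to 12917 CPM in control and 11286 to 18047 CPM in sGC animals. The F1 neuron markers summed to 4853 to 5699 CPM in control and 4253 to 5671 CPM in sGC animals. Of the hippocampal neuron markers 6 of 7 were lower in F1 and of the interneuron markers 6 of 7. In each of these lists edgeR called 0 of 7 with 2 at an unadjusted p below 0.05. Over all genes tested in F1, 2.08% passed and 19.6% had such an unadjusted p. Library 4 of the F1 sGC animals was the highest in the astrocyte sum and the lowest in the neuron sum, and its NCOA2 level of 71.3 CPM lay within the range of the other 4 sGC animals. All 7 meningeal fibroblast markers tested were lower in F1 sGC animals and 2 passed (DCN and LUM), with a sum of 100.2 to 282 CPM in control and 68.9 to 139.7 CPM in sGC animals. The part of these lists in the NCOA2 result was not tested.

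How the 8 genes varied together from animal to animal was described with group means removed, over all 36 libraries, with 100000 permutations within groups for each of 28 pairs. By Pearson's r, 5 pairs passed after Benjamini-Hochberg adjustment, all positive, and 3 of these also by Spearman's rho. The share of all gene pairs that would pass was not computed, so whether this count is particular to the 8 genes is not known. NCOA2 and NCOR1 had an r of 0.75 (permutation p = 4e-05, adjusted 0.00112) and a rho of 0.59 (adjusted permutation p = 0.0161). Within F1, F2 and F3 this r was 0.52, 0.72 and 0.80, and without the 2 libraries farthest from the median of the first gene it was 0.63. NCOA1 and NCOR1 had an r of 0.61 (permutation p = 1e-04, adjusted 0.0014) and a rho of 0.67 (adjusted permutation p = 0.00308). Within generations it was 0.50, 0.36 and 0.89, and without the 2 farthest libraries 0.62. NCOA1 and NCOA2 thus tended to lie above their group means in the same animals as the corepressor.

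NR3C2 and NCOA1 had an r of 0.56 (permutation p = 0.00202, adjusted 0.0189) and a rho of 0.52 (adjusted permutation p = 0.028), with 0.81 in F1, 0.07 in F2 and 0.42 in F3, and 0.57 without the 2 farthest libraries. NR3C1 had an r of 0.51 with NCOR1 and 0.49 with NCOA2 (adjusted permutation p = 0.0218 and 0.0283), with rho of 0.40 and 0.39 (adjusted permutation p = 0.0989 for both). Without the 2 farthest libraries the r of NR3C1 was 0.39 with NCOR1 and 0.32 with NCOA2. Within F1, F2 and F3 they were -0.00, 0.54 and 0.77 for NCOR1 and 0.34, 0.57 and 0.57 for NCOA2. The 2 receptors themselves had an r of 0.05 (adjusted permutation p = 0.911), with -0.28 in F1, -0.00 in F2 and 0.46 in F3. Without libraries 32 to 36, 2 of the 5 pairs passed, NCOA1 with NCOR1 at 0.67 and NCOA2 with NCOR1 at 0.71 (adjusted permutation p = 0.0056 for both).

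**Figure D5:**
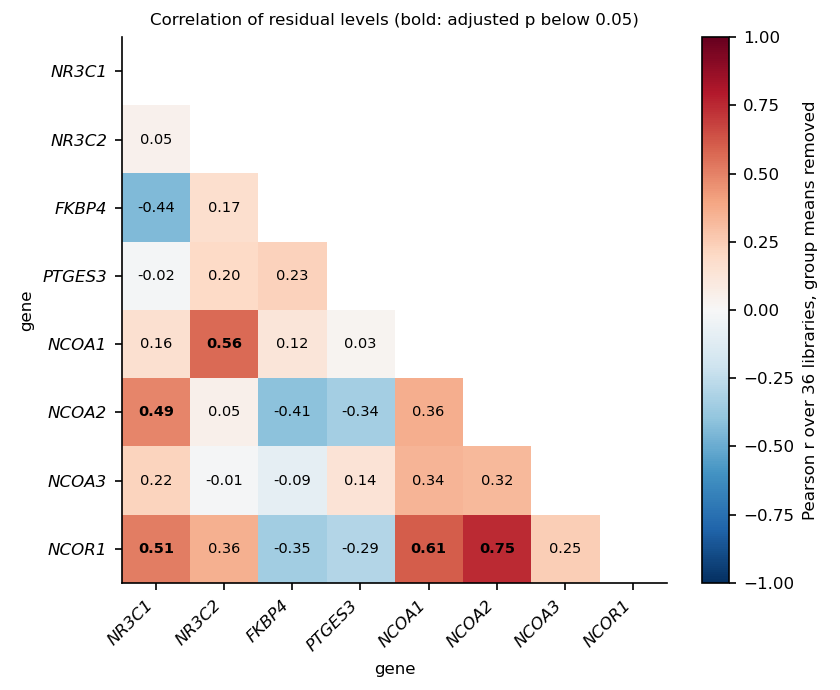
Pearson's r between the 8 genes over 36 libraries after group means were removed from log2 CPM, for all 28 pairs. The highest value is 0.75 for NCOA2 with NCOR1, and the receptors NR3C1 and NR3C2 have 0.05 with each other.

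Over all genes of the joint fit, those most like NR3C1 in this residual pattern over 36 libraries were KCNH7 (r = 0.74), ADAM22 (r = 0.74) and MAP2K6 (r = 0.73). Of the other 11389 genes, 95% lay between -0.47 and 0.50. Those most like NR3C2 were TANC1 (r = 0.79), EPHA4 (r = 0.78) and ARHGEF3 (r = 0.77), where 95% of the other genes lay between -0.46 and 0.50. These are descriptions with no test, and the libraries share their depth and tissue composition with every gene measured in them.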

How the data were processed

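Hippocampal mRNA libraries (TruSeq, single-end) of 36 female guinea pigs were counted per gene. The authors deposited raw read counts in 3 tables, 1 per generation, not normalized. TopHat2 and edgeR are named in the submitters' processing notes, and the counting tool, annotation and genome build of the RNA reads are not given in the sources used here. The tables also hold the authors' own comparisons (fold changes, average log2 CPM, test statistics, p-values and FDR), and the methylation tables hold only such comparisons, so none of these was used. Groups came from the sample labels, and columns were matched to samples by title. No column of another sample was present. HSD11B1 and some genes of the lists are not analysed here. Results for other steroid receptors are not reported here.

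Each generation was fitted alone with edgeR 4.0.16 (R 4.3.3, limma 3.58.1) by the quasi-likelihood test, after filterByExpr and TMM scaling, with Benjamini-Hochberg adjustment over 11377, 11414 and 11359 genes and a threshold of 0.05. Interactions, mean effects and control levels came from 1 fit of 36 libraries over 11390 genes listed in all 3 tables. Standard errors are the fitted difference divided by the square root of the test's F. Ratios were tested with exact two-sided permutation tests, and correlations with 100000 permutations, in Python 3.11.15 (numpy 2.4.6, pandas 2.3.3, scipy 1.17.1, matplotlib 3.10.9). Alternatives were the likelihood ratio test, DESeq2 1.42.0, RLE scaling, no filter, all generations together, a replicate block, leaving out libraries 32 to 36, and leaving out each library in turn. All members were named, and of each other list the genes past the threshold, at most 6 by smallest p, otherwise the 1 gene with the smallest p. HSPA4, the one gene past the threshold beyond these 6, and the markers named were added after their values were seen. The members and lists were chosen with earlier results of these data known.

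The fits were tested on simulated data with 200 genes changed. The changed genes were drawn from those above a minimum mean CPM, which FKBP5 and HSD11B2 did not reach. Of genes changed 1.2-fold, 43% were found in F1, 87% in F2 and 81% in F3. Of genes changed 1.5-fold, 98%, 100% and 100% were found, with 9, 8 and 10 false calls. A gene that missed the threshold in F1 may thus still differ by such a small amount. Replicate animals came from independent mothers, so the tests set differences against the spread between animals. The labels of the RNA libraries do not give the F0 founder of each F2 or F3 animal. Whether animals of a group shared a treated founder could therefore not be examined. Intervals of levels rest on the spread between animals and not on counting error alone.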

Additional observations from a re-analysis of the deposited data

Results flagged for a closer look

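Of 72 groups of values examined, 7 had a lowest or highest animal whose gap to its nearest neighbour, as a share of the range of the group, was above Dixon's 95% critical value. Chance gives about 1 in 20 such groups, and no explanation was tested. NR3C1 was lowest in F3 sGC library 3 at 94.5 CPM, with the next animal at 107 CPM (gap over range 0.629). NR3C2 was lowest in F2 sGC library 3 at 141 CPM, with the next at 153 CPM (0.694). FKBP4 was highest in F2 sGC library 4 at 129 CPM, with the next at 119 CPM (0.789). FKBP5 was lowest in F3 sGC library 4 at 8.06 CPM, with the next at 10.6 CPM (0.617). The log2 ratio of FKBP4 to FKBP5 was lowest in F3 control library 4 at 2.84, with the next at 3.27 (0.633), and highest in F3 sGC library 4 at 3.86, with the next at 3.38 (0.661). The log2 ratio of NCOA2 to NCOR1 was lowest in F2 sGC library 4 at -1.93, with the next at -1.83 (0.666).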

How the results depend on the processing

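NR3C2 in F3 and the F3 ratio of NR3C2 to NR3C1 kept their direction and their side of the threshold under every alternative run for them, the ratio at an adjusted exact permutation p of up to 0.039. NCOA2 in F1 did not, as given above. The cause of the changes listed here was not tested. For all genes called in F1 (237 by edgeR's quasi-likelihood test), the likelihood ratio test gave 598, DESeq2 658, all generations together 852, the replicate block 72 and leaving out libraries 32 to 36 gave 97. Genes of the 8 called in F1 (1) became 3, 2, 0 and 0 under DESeq2, all together, the replicate block and without libraries 32 to 36, and chaperones called lower in F1 (0) became 1, 2 and 4 under the likelihood ratio test, DESeq2 and all together. F2 calls (0) became 6 and 12 under the likelihood ratio test and DESeq2, and 0 with the replicate block. F3 calls (573) became 944 under DESeq2, 334 all together, about 1.7e+02 with the replicate block and 317 without libraries 32 to 36, and F3 chaperones called lower (7) became 4, 3 and 4 under the last 3. For interactions, F2 against F1 (33) gave 168 by the likelihood ratio test, 66 without a filter and 68 without libraries 32 to 36. F3 against F1 (0) gave 58 and 431 by the first and last of these, with 1 and 2 of the 8 genes. Without libraries 32 to 36 the mean effect gave 54 genes in place of 971 and the correlations 2 pairs in place of 5. The likelihood ratio test gave 9 genes for control levels of F3 against F1 in place of 2. Without libraries 32 to 36, NCOA2 in F3 reversed to -0.0093 and the F3 ratio of NCOA2 to NCOR1 to -0.022.

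Leaving out 1 library at a time gave 56 (without sGC 5) to 342 (without sGC 4) calls in F1, with 0 to 1 of the 8 genes, 0 to 1 calls in F2, and 288 (without sGC 5) to 639 calls in F3 with 4 to 7 chaperones (4 without control 3 or without sGC 5). It gave 0 to 219 calls for F2 against F1, 0 to 454 for F3 against F1 (454 without F1 sGC 4) with 0 to 2 of the 8 genes, 539 (without F1 sGC 4) to 1190 for the mean effect with 0 to 2 of the 8 genes, and 0 to 7 for control levels of F3 against F1. Differences near 0 changed sign: FKBP4 in F2 ran from -0.017 to 0.013, NCOA2 in F2 from -0.039 to 0.0097 and in F3 from -0.014 to 0.080, NCOR1 in F2 from -0.020 to 0.00026, NR3C1 in F2 from -0.042 to 0.0054, and the ratios FKBP4 to FKBP5 in F3 from -0.050 to 0.086, NCOA2 to NCOR1 in F2 from -0.030 to 0.011 and in F3 from -0.026 to 0.038. Replicate numbers did not pair the animals: over 17 same-numbered pairs the correlation of deviations ran from -0.292 to 0.292, 3 were above 0.1 and 4 samples correlated best with their own number. Counting error was 1.46% to 3.0% of the level for the 8 genes, below their spread between animals, so the number of animals and not the depth sets most of the errors here.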
